A study of Rattus norvegicus with 10 samples.

Results

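The CA1 region of rat hippocampal slices that had received SKF, amyloid-beta (Aβ) and the empty carbon nanosphere CSP was compared with that of slices that had received SKF only. The comparison uses 4 of the 10 RNA-seq libraries of the series, replicates 1 and 2 of the samples labelled CSP_SKF_Abeta (SKF+Aβ+CSP here) and replicates 1 and 2 of those labelled SKF_alone (SKF here). SKF is an agonist of the dopamine D1/D5 receptors, and it was present in both groups. Aβ oligomers were given at 200 nM. CSP, made from glucose, is the particle that elsewhere in the study carries TTK21, a small molecule that activates the lysine acetyltransferases CBP and p300, and it was given empty here at 0.36 μg/ml. SKF+Aβ+CSP differs from SKF by both Aβ and CSP, so their contributions cannot be told apart within this pair of groups. Slice recordings used male Wistar rats 5 to 7 weeks old. Slices had 30 min of basal stimulation and were collected 1 h after treatment, and each library pooled 2 slices from 2 biological samples. A p-value therefore measures the spread between such pools, estimated from all 5 groups of the series at 2 libraries each.

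As background, D1/D5 receptors raise cAMP through adenylyl cyclase, and cAMP activates protein kinase A, which phosphorylates the transcription factor CREB and the phosphatase inhibitor DARPP-32. CREB recruits CBP and p300 at the promoters of immediate early genes such as Fos, Egr1 and Nr4a1, whose transcripts appear within minutes of neuronal activity and decay soon after. Aβ oligomers are known for weakening long-lasting potentiation at CA1 synapses.

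The 10 libraries held between 6753742 and 8473407 counts on 32545 genes, at which 3 counts correspond to 0.354 to 0.444 CPM, the count scaled to the library total. Levels below are CPM adjusted with edgeR's TMM factors. CA1 markers (Wfs1, Man1a1, Mpped1 and others) summed to 537 and 758 CPM in the SKF libraries and 616 and 683 in SKF+Aβ+CSP, and Fibcd1 was listed at 0 in every library. The transcripts of the mitochondrial genome took 3.58% of counts in SKF replicate 1 and 5.52% in replicate 2, against 7.33% and 6.05% in SKF+Aβ+CSP. RT1-N2, a class I histocompatibility gene chosen after its values were seen, had 0 counts in both SKF libraries and in SKF+Aβ+CSP replicate 1 but 70 in SKF+Aβ+CSP replicate 2. RT1 genes differ between rats, and pools within a group differed in this one.

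Only 3 of 15032 genes tested passed an adjusted p-value of 0.05, from edgeR's quasi-likelihood test after Benjamini and Hochberg, which is 0.02% of the genes (0.0133% higher and 0.00665% lower). With the study's added limit of 1.5 on the log2 scale 2 remained (0.0133%). Both genes that rose were copies of Y RNA, a short noncoding RNA that binds the Ro and La proteins. The copy ENSRNOG00000060430 stood at 13.8 and 12.5 CPM in the SKF libraries and at 60.4 and 59.7 in SKF+Aβ+CSP. Its rise was 2.19 ± 0.17 on the log2 scale (SE, adjusted p = 8.70e-05). The copy ENSRNOG00000056608 stood at 9.54 and 8.81 CPM in SKF and 29.1 and 31.1 in SKF+Aβ+CSP, a rise of 1.71 ± 0.21 (adjusted p = 0.0105). The files hold 28 rows named Y_RNA, and reads from near-identical copies could be split among them. The call of the first copy held without any 1 of the 4 libraries, while the second kept an adjusted p under the threshold only without SKF replicate 1 (0.0462) and reached 0.107 and 0.186 without SKF+Aβ+CSP replicates 1 and 2 and 0.0672 without SKF replicate 2.

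Ppp1r1b (ENSRNOG00000028404), which encodes DARPP-32, was the only gene that fell. Its level was 75.6 and 77.7 CPM in the SKF libraries and 40.8 and 33.0 in the SKF+Aβ+CSP libraries, with no overlap, and it fell by 1.05 ± 0.15 on the log2 scale (adjusted p = 0.0387), a level 2.07 times lower. DARPP-32 turns a D1-type signal into inhibition of protein phosphatase 1 and is most abundant in the striatum. Of 12 markers of striatum and other regions outside the hippocampus, Ppp1r1b was the only one with an unadjusted p under 0.05. By the estimate 8 of the 12 were lower and 4 higher. The summed level of the list was 274 and 228 CPM in SKF and 224 and 221 in SKF+Aβ+CSP. That sum contains Ppp1r1b itself, so it is not a measure apart from its fall. Drd2, a striatal receptor gene with few counts, was at 2.76 and 1.202 CPM in SKF and 1.18 and 1.03 in SKF+Aβ+CSP. Its estimate was -0.82 and ranged from -1.30 to -0.13 without 1 library. A different amount of neighbouring tissue in the slices was not tested, and in bulk RNA fewer cells and less RNA per cell cannot be told apart. The call rests on all 4 libraries: without SKF+Aβ+CSP replicates 1 and 2 the adjusted p was 0.144 and 0.732, and without SKF replicates 1 and 2 it was 0.0657 and 0.0672, with an estimate between -1.23 and -0.92. The call also rests on the other 6 libraries and on the genes tested, since the adjusted p was 0.0818 with only the 4 libraries in the fit and 0.0585 among genes with a span, at an estimate of -1.05 in both.

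**Figure D1:**
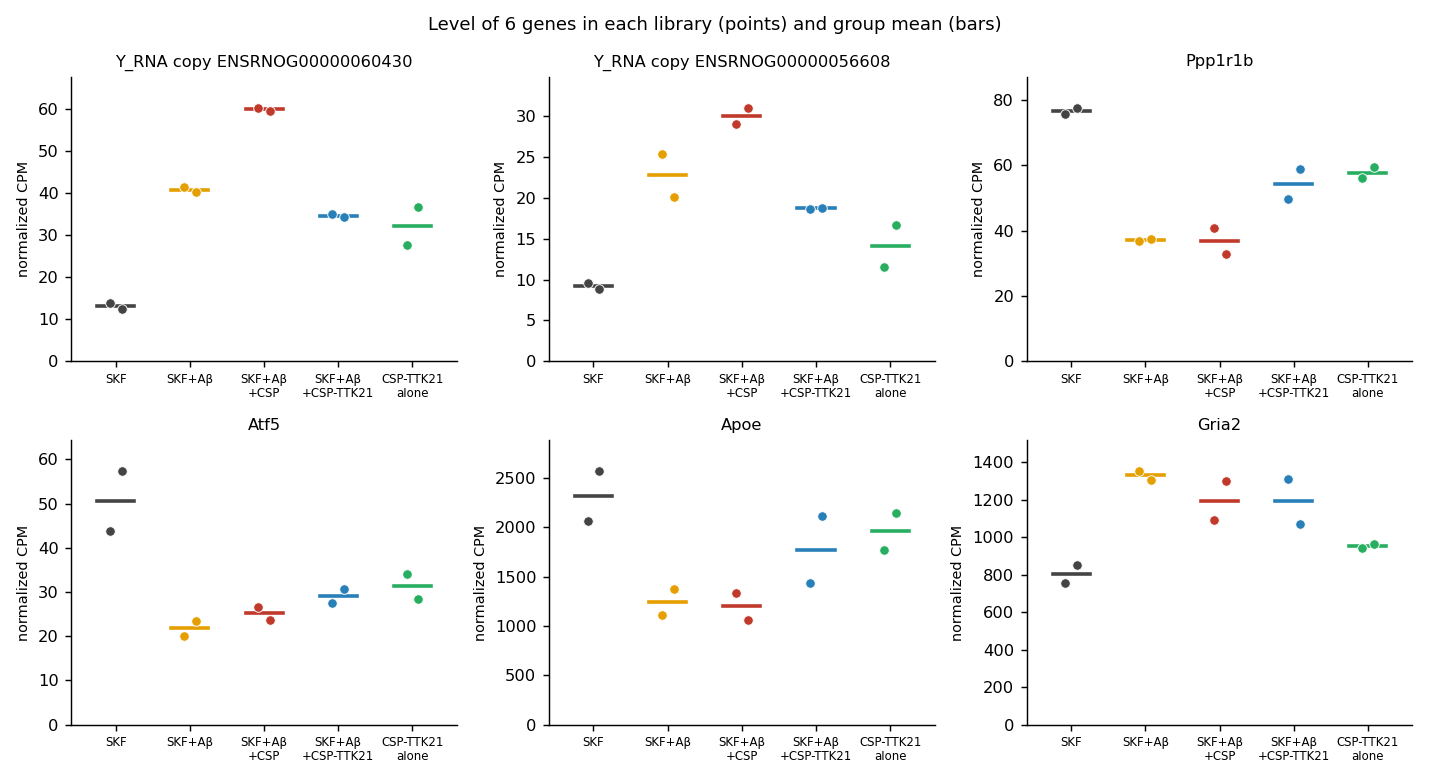
Normalized CPM (vertical axes, from 0) of 6 genes in each of the 10 libraries (points) by group (horizontal axes), with the mean of 2 libraries as a bar. Both Y_RNA copies lie above SKF in SKF+Aβ+CSP and Ppp1r1b, Atf5 and Apoe lie below it, while Gria2 lies above it, and the other groups are shown for reference.

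Just outside the threshold the genes were more numerous. At an adjusted p under 0.1, 288 genes were higher (1.92%) and 171 lower (1.14%), and an unadjusted p under 0.05 was reached by 2908 genes, 10.3% of all higher and 9.03% lower. The libraries of the groups did not overlap in 27.1% of genes on the higher side and 25.3% on the lower. The 10 genes next in p-value, chosen after their values were seen, had adjusted p-values of 0.0559 to 0.0572. DESeq2, which called 2.98% of the genes it adjusted higher and 2.13% lower, gave 9 of them an adjusted p of 0.00301 or less and gave Rnf138 none. Ssb, which encodes the La protein that binds Y RNAs and other RNA polymerase III transcripts, was at 58.9 and 65.7 CPM in SKF and 106 and 124 in SKF+Aβ+CSP (0.88 ± 0.14). Sirt1, a nuclear deacetylase, was at 20.2 and 19.0 in SKF and 35.4 and 38.4 in SKF+Aβ+CSP (0.91 ± 0.16). Ranbp2, a nuclear pore protein, Naa15, a subunit of an N-terminal acetyltransferase, Dmxl1, Zmym2, Zcchc11 and Rnf138 were also on the higher side, with estimates from 0.76 to 1.86. On the lower side stood Fbxo2, a ubiquitin ligase subunit that recognizes glycoproteins, at 71.2 and 75.2 CPM in SKF and 38.5 and 39.0 in SKF+Aβ+CSP (-0.92 ± 0.15). Ptms, parathymosin, was at 762 and 595 in SKF and 395 and 382 in SKF+Aβ+CSP (-0.80 ± 0.14). None of the 10 passed the test used here. The shares at an unadjusted p under 0.05 were 3.76% higher and 2.89% lower without SKF+Aβ+CSP replicate 2, and 8.09% and 7.65% without its replicate 1. They were 7.23% and 7.77% without SKF replicate 1, and 9.79% and 6.9% without SKF replicate 2. List counts given without a library below are to be read against these.

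A trend with gene length ran through the whole comparison. For the 12493 genes (83.1%) with a gene span in the RefSeq annotation of GRCr8, which is not the build of the files, Spearman's correlation of span with log2 fold change across genes was 0.29. Genes are not independent replicates, and all share the same 4 libraries. The median log2 fold change climbed from -0.19 in the shortest of 5 equal bins of genes by span through -0.10, -0.01 and 0.09 to 0.11 in the longest. In the shortest bin 17.4% of genes were lower at an unadjusted p under 0.05 and 3.08% higher, and in the longest bin 3.04% were lower and 16.3% higher. When the fitted trend was taken out of the counts as an offset, 973 genes were higher (7.79%) and 1053 lower (8.43%) at that level and 0 passed adjustment, with Ppp1r1b at -0.96 (adjusted p = 0.0889). Some list counts moved with the offset, and several are given after it below.

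**Figure D2:**
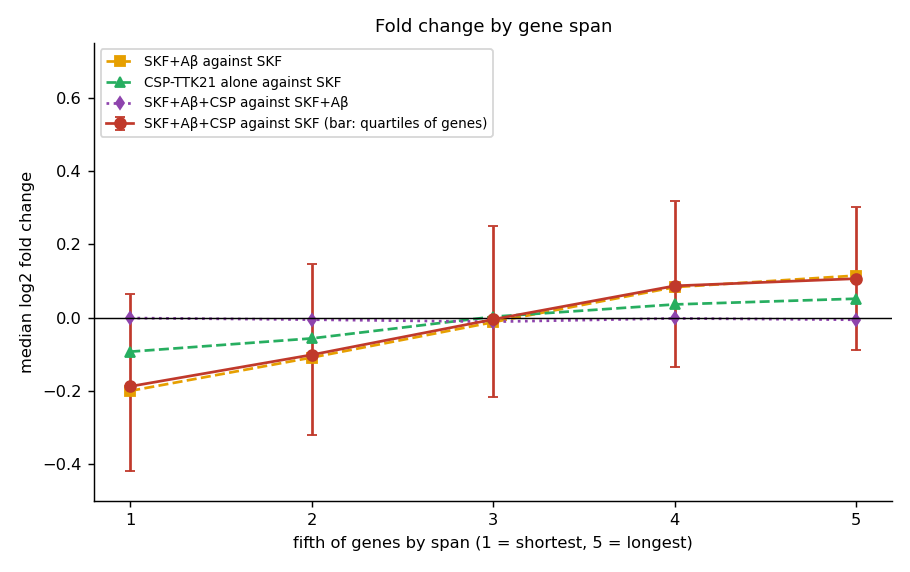
Median log2 fold change (vertical axis) of the genes in each of 5 equal bins of gene span (horizontal axis, 1 shortest to 5 longest), with the quartiles of genes as bars for SKF+Aβ+CSP against SKF. The medians run from -0.19 to 0.11 in that comparison and from -0.20 to 0.11 for SKF+Aβ against SKF, are flatter for CSP-TTK21 alone against SKF, and lie between -0.01 and 0 for SKF+Aβ+CSP against SKF+Aβ.

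Receptor to CREB, the list of dopamine and cAMP signalling genes had 37 tested members, of which 1 fell (Ppp1r1b), 5 were lower at an unadjusted p under 0.05 (Ppp1r1b included) and 1 was higher, against 9.03% and 10.3% of all genes. Without SKF+Aβ+CSP replicate 2 the count was 1 lower and 0 higher, and without SKF replicate 1 it was 2 of each. The median log2 fold change was -0.06, against 0.002 over all genes. The receptors SKF acts on were scarce, Drd1 at 1.66 and 2.67 CPM in SKF and 3.90 and 3.37 in SKF+Aβ+CSP (adjusted p = 0.28), and Drd5 at 3.04 and 3.74 in SKF and 3.31 and 1.61 in SKF+Aβ+CSP (adjusted p = 0.666). Adcy5, an adenylyl cyclase, was at 150 and 136 CPM in SKF and 116 and 104 in SKF+Aβ+CSP (-0.38 ± 0.14, adjusted p = 0.17). Prkaca, the catalytic α subunit of protein kinase A, was at 193 and 194 in SKF and 158 and 145 in SKF+Aβ+CSP (-0.35 ± 0.13, adjusted p = 0.169). Pde1a, a phosphodiesterase that degrades cyclic nucleotides, was at 74.9 and 71.2 in SKF and 90.3 and 112 in SKF+Aβ+CSP (0.47 ± 0.17, adjusted p = 0.172). For none of these genes but Ppp1r1b did the difference pass adjustment. CBP and p300, the targets of TTK21, had the same means within error: Crebbp was at 277 and 273 in SKF and 280 and 303 in SKF+Aβ+CSP (0.08 ± 0.12), and Ep300 at 64.0 and 67.8 in SKF and 65.9 and 68.6 in SKF+Aβ+CSP (0.03 ± 0.14). Drd1, Drd5, Crebbp and Ep300 were chosen after their values were seen.

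Among the acetyltransferases and deacetylases as a whole, 2 of 23 were higher and 1 lower at an unadjusted p under 0.05, neither share above the 10.3% and 9.03% of all genes. Besides Sirt1 these were Hdac2, at 71.6 and 65.8 CPM in SKF and 83.4 and 89.3 in SKF+Aβ+CSP (0.33 ± 0.13, adjusted p = 0.198), and Hdac11, at 130.2 and 133 in SKF and 101 and 83.8 in SKF+Aβ+CSP (-0.51 ± 0.15, adjusted p = 0.105). The adrenergic receptors, 7 tested, had 1 lower and 0 higher, and 0 lower without SKF replicate 1 or without either SKF+Aβ+CSP library. That gene, Adra2c, an inhibitory receptor for noradrenaline, was at 21.8 and 18.6 in SKF and 13.1 and 12.5 in SKF+Aβ+CSP (-0.66 ± 0.25, adjusted p = 0.179).

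The 10 genes that the study names in its RNA-seq text or measured by RT-PCR were followed whatever their values, and none of the 9 tested passed adjustment. Atf5, a transcription factor of the integrated stress response, came closest, with 43.8 and 57.4 CPM in SKF and 26.7 and 23.6 in SKF+Aβ+CSP (-1.01 ± 0.18, adjusted p = 0.0572, DESeq2 adjusted p = 0.00117). Tgfb1, the transforming growth factor β1 ligand, was at 21.8 and 26.97 in SKF and 16.9 and 11.6 in SKF+Aβ+CSP (-0.77 ± 0.23, adjusted p = 0.115). Il6, an acute cytokine, was at 32.9 and 17.4 in SKF and 53.3 and 52.2 in SKF+Aβ+CSP (1.07 ± 0.39, adjusted p = 0.169). In these genes and Actb the libraries of the groups did not overlap. Actb, often used as a reference transcript, was at 1898 and 2144 in SKF and 1684 and 1606 in SKF+Aβ+CSP (-0.30 ± 0.13, adjusted p = 0.232).

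Other study genes overlapped between the groups. Cxcl1, a neutrophil chemokine, ranged from 36.4 to 189 CPM within SKF alone and was 149 and 103 in SKF+Aβ+CSP. App, the amyloid precursor, was at 1694 and 1335 in SKF and 1317 and 1348 in SKF+Aβ+CSP (-0.18 ± 0.14), and S100b, a calcium-binding protein of astrocytes, at 747 and 942 in SKF and 759.7 and 603 in SKF+Aβ+CSP (-0.31 ± 0.20). Wnt10b, a Wnt ligand, was at 2.21 and 1.07 in SKF and 1.65 and 2.05 in SKF+Aβ+CSP. Wnt3a had 1 and 5 counts in SKF and 2 and 3 in SKF+Aβ+CSP and did not pass the filter on low counts, so a difference was not detectable at this depth.

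Activity-induced transcription factors were on the lower side of SKF as a group. All 25 tested had a lower estimate in SKF+Aβ+CSP, 18 with no overlap between the libraries (25.3% of all genes on that side), and 11 at an unadjusted p under 0.05 against 9.03% of all genes. The median was -0.52, and none passed adjustment in edgeR or DESeq2, with a lowest edgeR adjusted p of 0.111. Maff, a small Maf factor, was at 105 and 103 CPM in SKF and 79.6 and 64.6 in SKF+Aβ+CSP (-0.52 ± 0.15, adjusted p = 0.111). Junb, an AP-1 subunit, was at 275 and 237 in SKF and 137 and 148 in SKF+Aβ+CSP (-0.85 ± 0.25, adjusted p = 0.112). The orphan nuclear receptor Nr4a1 was at 201 and 139 in SKF and 75.1 and 118 in SKF+Aβ+CSP (-0.82 ± 0.28), and Egr2, a zinc finger factor, at 49.9 and 28.3 in SKF and 13.1 and 25.5 in SKF+Aβ+CSP (-1.03 ± 0.38). In each of these 4 both SKF libraries were above both SKF+Aβ+CSP libraries. Fos, named after its values were seen like Egr4, Egr1 and Npas4, was at 489 and 599 in SKF and 308 and 323 in SKF+Aβ+CSP (-0.79 ± 0.30, adjusted p = 0.185). Egr4 had the lowest estimate, -1.22 ± 0.45, from 56.1 and 26.03 CPM to 12.1 and 23.6, and it ranged from -1.78 to -0.57 without 1 library. The range was -1.59 to -0.58 for Egr2 and -1.19 to -0.54 for Nr4a1. Egr1 was at 557 and 596 in SKF and 362 and 497 in SKF+Aβ+CSP (-0.43 ± 0.27), and Npas4 overlapped, with 135 and 43.7 CPM in SKF.

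Single libraries weighed on this count. Of the 25 factors, 3 were lower at an unadjusted p under 0.05 without SKF+Aβ+CSP replicate 1 and 6 without SKF replicate 1, the medians being -0.36 and -0.46, and 9 without either of the other 2 libraries. Without SKF replicate 2, 21 of 25 estimates were lower. These genes are short, with a median span of 6.1 kb, and with the span offset 22 of 25 estimates stayed lower, 7 of them at an unadjusted p under 0.05, with a median of -0.37. The median was also below 0 where no Aβ had been given, in CSP-TTK21 alone against SKF (-0.65, 19 lower at an unadjusted p under 0.05 against 3.63% of all genes, where 4.16% were higher), a group that received no SKF, and it was -0.38 in SKF+Aβ against SKF (8 lower against 10.9% of all genes, where 12% were higher, and of the 8 Maff passed adjustment at -0.73).

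**Figure D3:**
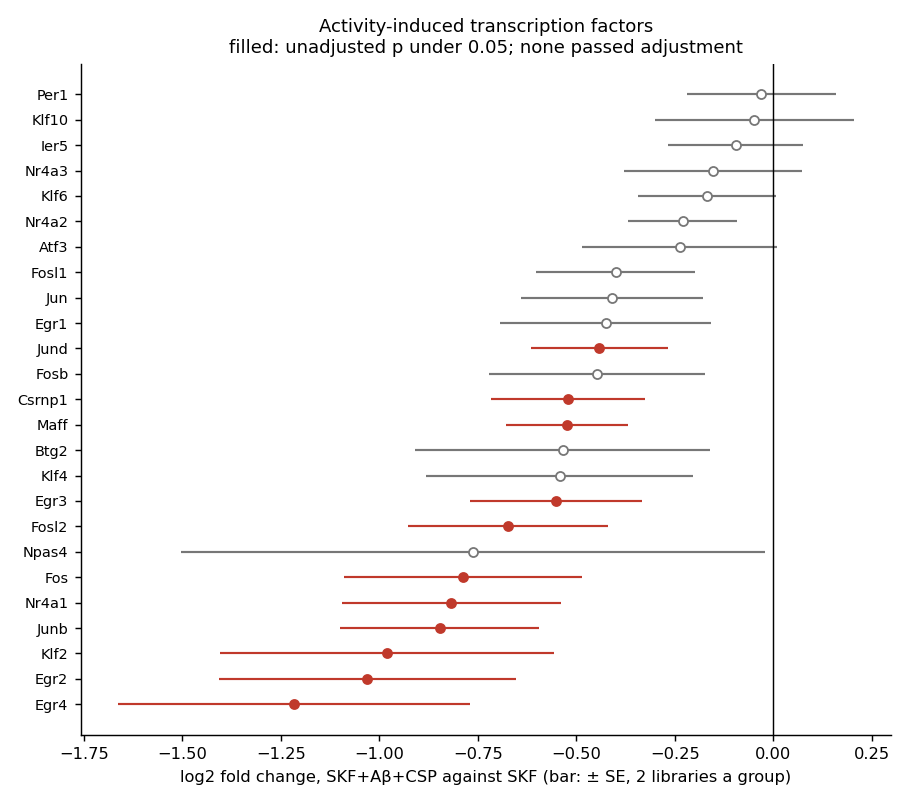
Log2 fold change of SKF+Aβ+CSP against SKF (horizontal axis, with SE as bars, 2 libraries a group) for the 25 activity-induced transcription factors tested (vertical axis). All points lie below 0, from -1.22 for Egr4 to -0.03 for Per1, and the 11 filled points have an unadjusted p under 0.05.

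CREB binds the cAMP response element, whose half-site reads TGACG. Promoters of the 4 factors with the lowest p-values are shown because they lead the list, from 250 bases before to 50 after the gene start (RefSeq, GRCr8), with every TGACG, or CGTCA on the other strand, in capitals.
Maff (chr7:112792537-112792836, plus strand): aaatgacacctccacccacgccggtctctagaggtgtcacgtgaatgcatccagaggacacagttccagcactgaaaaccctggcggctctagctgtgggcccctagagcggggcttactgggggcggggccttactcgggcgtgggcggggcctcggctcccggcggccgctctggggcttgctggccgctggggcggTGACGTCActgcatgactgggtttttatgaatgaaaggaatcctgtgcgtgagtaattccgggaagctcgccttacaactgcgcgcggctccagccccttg
Junb (chr19:40080876-40081175, plus strand): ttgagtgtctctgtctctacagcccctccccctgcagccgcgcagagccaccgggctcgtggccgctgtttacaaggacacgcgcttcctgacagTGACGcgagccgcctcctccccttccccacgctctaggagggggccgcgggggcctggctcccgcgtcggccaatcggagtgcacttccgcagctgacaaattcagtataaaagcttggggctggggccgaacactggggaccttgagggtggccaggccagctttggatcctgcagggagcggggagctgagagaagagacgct
Nr4a1 (chr7:134259888-134260187, plus strand): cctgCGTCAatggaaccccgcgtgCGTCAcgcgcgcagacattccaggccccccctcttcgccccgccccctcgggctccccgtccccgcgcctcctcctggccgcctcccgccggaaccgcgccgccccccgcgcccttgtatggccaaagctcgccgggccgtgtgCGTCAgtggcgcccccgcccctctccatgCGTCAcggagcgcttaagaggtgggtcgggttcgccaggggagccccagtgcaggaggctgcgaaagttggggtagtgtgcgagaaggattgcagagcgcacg
Egr2 (chr20:21054392-21054691, minus strand): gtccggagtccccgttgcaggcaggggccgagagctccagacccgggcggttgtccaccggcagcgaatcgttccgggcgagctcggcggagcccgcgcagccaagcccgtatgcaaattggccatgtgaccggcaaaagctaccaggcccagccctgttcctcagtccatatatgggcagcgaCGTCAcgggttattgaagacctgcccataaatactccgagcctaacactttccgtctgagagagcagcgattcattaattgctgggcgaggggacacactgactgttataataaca

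Maff carried the whole palindrome TGACGTCA and Nr4a1 4 half-sites. Of the 18 activity-induced factors with a promoter in the table, 11 (61.1%) held the half-site on either strand and 4 (22.2%) the palindrome, in which the half-sites of both strands overlap. Among all 27457 promoters of the same length the shares were 22% and 1.91%. A match of letters is a description of the sequence and not evidence of binding in these slices.

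Other genes induced by activity, grouped as effectors and not as transcription factors, were on both sides. Of 22 tested, 6 were lower and 1 higher at an unadjusted p under 0.05, against 9.03% and 10.3% of all genes, with a median of -0.24. With the span offset 2 of 21 were lower and 1 higher. Without SKF replicate 1 the count was 1 lower and 3 higher, with 13 of 22 estimates higher and a median of 0.04, and without SKF+Aβ+CSP replicate 1 it was 2 lower and 1 higher. Cartpt, a neuropeptide precursor, was at 2.90 and 4.01 CPM in SKF and 1.06 and 0.73 in SKF+Aβ+CSP (-1.91 ± 0.58, adjusted p = 0.115). Pim1, a kinase, was at 80.9 and 53.9 in SKF and 41.7 and 40.9 in SKF+Aβ+CSP (-0.71 ± 0.23, adjusted p = 0.132), and Gadd45b, a growth arrest protein, at 136 and 132 in SKF and 100.3 and 104 in SKF+Aβ+CSP (-0.39 ± 0.16, adjusted p = 0.197). Pcsk1, which processes peptide hormones, was on the other side, at 25.99 and 26.2 in SKF and 32.6 and 41.3 in SKF+Aβ+CSP (0.50 ± 0.17, adjusted p = 0.146). Arc and Bdnf, the plasticity genes most often followed, were added after their values were seen. Arc was at 445 and 226 CPM in SKF and 164 and 220.2 in SKF+Aβ+CSP (-0.81 ± 0.35, adjusted p = 0.232), and Bdnf overlapped fully, at 158 and 85.3 in SKF and 85.2 and 144 in SKF+Aβ+CSP (-0.09 ± 0.33). Feedback inhibitors of the ERK cascade, the Dusp, Spry and Spred genes, gave 1 lower and 0 higher of 17, a share near that of all genes. That gene, Dusp5, was at 43.3 and 24.2 in SKF and 22.2 and 24.2 in SKF+Aβ+CSP.

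The transcripts of the respiratory chain split by genome. Of the 13 encoded by mitochondrial DNA, all had a higher estimate and 9 an unadjusted p under 0.05 (10.3% of all genes on that side), with a median of 0.54. Of the 68 encoded in the nucleus, 18 were lower (9.03% of all genes on that side) and 1 higher, with a median of -0.23. No gene of either list passed adjustment in edgeR, while DESeq2 called 4 of the mitochondrial genes higher and 5 of the nuclear genes lower. Mt-nd4, a complex I subunit, was at 125 and 197 CPM in SKF and 364 and 296 in SKF+Aβ+CSP (1.03 ± 0.19, adjusted p = 0.0572). Mt-co1, a subunit of complex IV, was at 6561 and 11904 in SKF and 16919 and 15082 in SKF+Aβ+CSP (0.79 ± 0.22, adjusted p = 0.102). For both genes SKF replicate 1 was the lowest library of all 4, and its mitochondrial share of counts, 3.58%, was the lowest of the 10 libraries. The median of the 13 genes was also above 0 in SKF+Aβ against SKF (0.40). It was 0.47 in CSP-TTK21 alone against SKF, where no Aβ had been given, and both comparisons use the same SKF libraries. Ndufs7, a nuclear subunit of complex I, was at 32.6 and 35.4 in SKF and 19.1 and 19.9 in SKF+Aβ+CSP (-0.80 ± 0.17, adjusted p = 0.0655), and Ndufb7 at 38.7 and 33.6 in SKF and 22.9 and 19.2 in SKF+Aβ+CSP (-0.78 ± 0.20, adjusted p = 0.0885). The mitochondrial count was 3 of 13 without SKF replicate 1, with a median of 0.19, and 3 without SKF+Aβ+CSP replicate 1. The nuclear count on the lower side was 4 without SKF+Aβ+CSP replicate 2 and 5 without SKF replicate 2, and it was 6 of 50 with the span offset.

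Cytosolic ribosomal protein genes were mostly on the lower side, 55 of 64 by the estimate, with 22 lower and 2 higher at an unadjusted p under 0.05, against 9.03% and 10.3% of all genes, and a median of -0.31. None passed adjustment, and DESeq2 called 7 lower. Rpl13a was at 428 and 437 CPM in SKF and 284 and 241 in SKF+Aβ+CSP (-0.72 ± 0.14, adjusted p = 0.0574), and Rpl18 at 99.9 and 107 in SKF and 72.3 and 59.95 in SKF+Aβ+CSP (-0.65 ± 0.13, adjusted p = 0.0642). Rpsa, a small subunit protein, was at 244 and 234 in SKF and 179 and 147 in SKF+Aβ+CSP (-0.55 ± 0.13, adjusted p = 0.0791). Ribosomal protein genes have many near-identical copies, so counts of single members are uncertain. The number lower was 6 without SKF+Aβ+CSP replicate 2 and 7 without SKF replicate 2 but 35 without SKF replicate 1. These genes have a median span of 3.3 kb, and with the span offset the number was 9 of 56 and the median -0.13. The replication-dependent histones, 24 tested, had 2 lower and 0 higher with a median of -0.40, and Hist1h1a, a linker histone, was at 8.99 and 4.41 CPM in SKF and 3.78 and 1.17 in SKF+Aβ+CSP (-1.39 ± 0.47, adjusted p = 0.149). Histones lower numbered 5 and 0 without SKF+Aβ+CSP replicates 1 and 2, and 6 and 1 without SKF replicates 1 and 2.

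Small structural RNAs were the group that held both called Y RNA copies. Of 265 rows tested, 2 rose, 64 were higher and 19 lower at an unadjusted p under 0.05, with a median of 0.52. Of all genes 10.3% were higher and 9.03% lower. In this fit the share of these rows on the lower side was therefore below that of all genes. A row with few counts could pass the filter through the group where it was high. With at least 10 counts in every library 31 of 91 rows were higher and 9 lower, with a median of 0.37. In that setting 11.6% of all genes were higher and 9.76% lower. With no filter the median was 0.19 over 2013 rows. Without SKF+Aβ+CSP replicate 2 the median was 0.32, over 336 rows tested in that fit. Summed over all copies, Y RNA was at 23.6 and 22.2 CPM in SKF and 90.0 and 92.1 in SKF+Aβ+CSP, 3.98 times the SKF mean. The SNORD RNAs, which guide ribose methylation of ribosomal RNA, summed to 289 and 277 in SKF and 393 and 494 in SKF+Aβ+CSP (1.57 times), and 35 of 89 rows were higher and 0 lower at an unadjusted p under 0.05. The SNORA RNAs, which guide pseudouridylation, summed to 344 and 383 in SKF and 471 and 555 in SKF+Aβ+CSP (1.41 times). Of the spliceosomal RNAs, U4 and U6 stood at 1.60 times the SKF mean each and U1 at 1.45 times. U5, with 0 rows tested, stood at 1.74 times and U2 at 1.01 times.

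Some class sums lay lower. RNase P RNA, the catalytic RNA of transfer RNA processing, summed to 3864 and 4990 CPM in SKF and 2363 and 1778 in SKF+Aβ+CSP, 2.14 times lower. The small Cajal body (SCARNA) RNAs summed to 416 and 505 in SKF and 350 and 329 in SKF+Aβ+CSP, 1.36 times lower. Of their 11 rows tested 4 were lower and 1 higher at an unadjusted p under 0.05, against 9.03% and 10.3% of all genes. The RNA of the signal recognition particle summed to 55.6 and 148 in SKF and 33.0 and 27.4 in SKF+Aβ+CSP, 3.37 times lower by the means, and the SKF libraries themselves lay far apart. The Metazoa_SRP row ENSRNOG00000048993 was at 30.3 and 49.7 in SKF and 15.9 and 14.4 in SKF+Aβ+CSP (-1.40 ± 0.26, adjusted p = 0.0572). The 7SK row ENSRNOG00000053909, from the RNA that holds the elongation factor P-TEFb inactive, was at 6.91 and 8.01 in SKF and 1.65 and 1.17 in SKF+Aβ+CSP (-2.37 ± 0.43, adjusted p = 0.0572). Over the 37 rows of 7SK tested, 5 were higher and 7 lower at an unadjusted p under 0.05, with a median of 0.01, while the sum over all 424 copies was 3845 and 4354 CPM in SKF and 3306 and 2816 in SKF+Aβ+CSP, 1.34 times lower. Many rows of these classes are near-identical copies. How library preparation treated them was not tested. With 2 libraries a group an exact permutation test of a class sum could not fall below p = 0.333, so none is given.

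**Figure D4:**
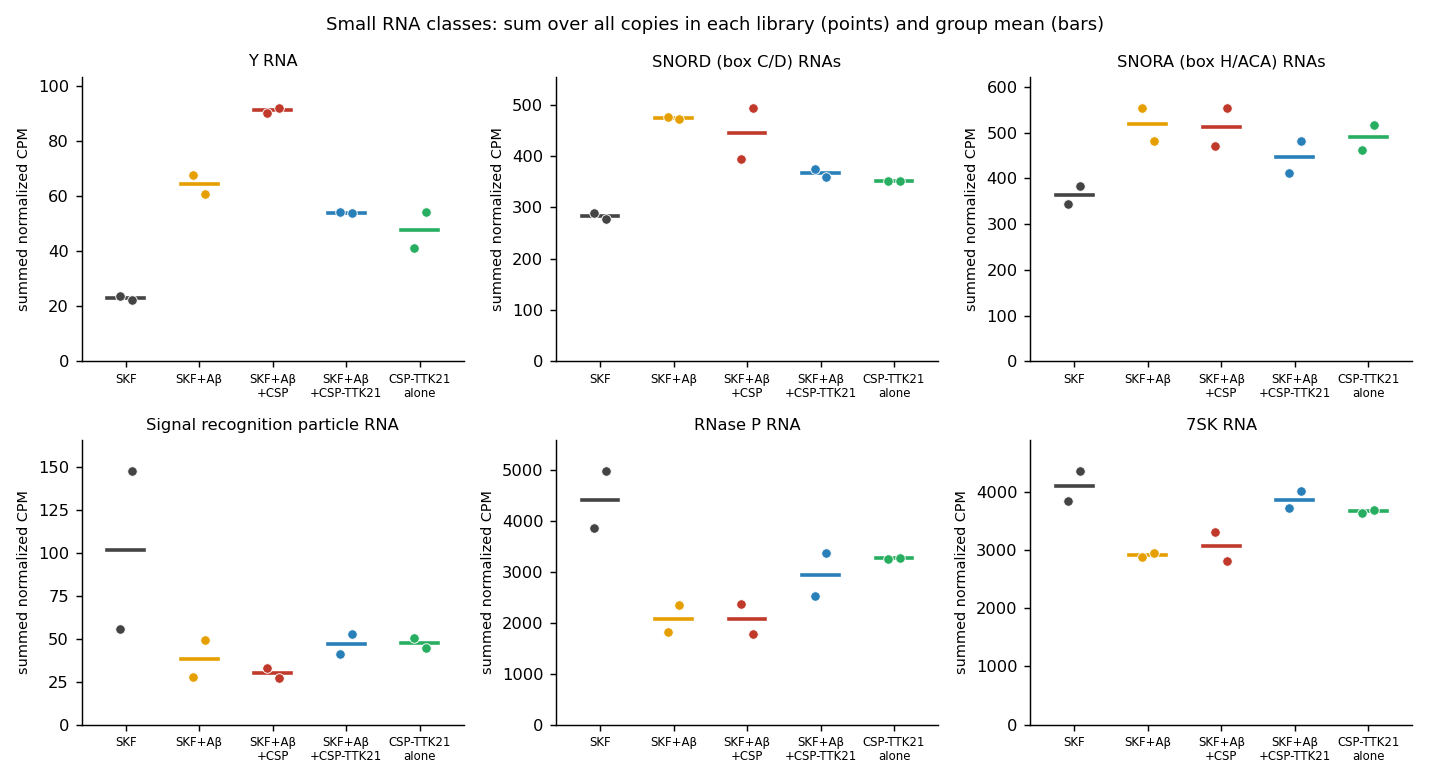
Summed normalized CPM (vertical axes, from 0) over all copies of 6 small RNA classes in each library (points) by group, with the group mean as a bar. Y RNA, SNORD and SNORA lie above SKF in SKF+Aβ+CSP, and the signal recognition particle RNA, RNase P RNA and 7SK RNA lie lower, with Y RNA at 90.0 and 92.1 against 23.6 and 22.2.

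Antioxidant genes under Nrf2 had 7 of 25 lower and 0 higher at an unadjusted p under 0.05, against 9.03% and 10.3% of all genes, with a median of -0.22, and DESeq2 called 2 of them lower. Mt3, a brain metallothionein, was at 143 and 136 CPM in SKF and 83.6 and 69.5 in SKF+Aβ+CSP (-0.87 ± 0.16, adjusted p = 0.0572). Ftl1, the ferritin light chain, was at 155 and 172 in SKF and 107 and 97.6 in SKF+Aβ+CSP (-0.68 ± 0.13, adjusted p = 0.0572). Hmox1, which degrades haem, was at 38.8 and 44.2 in SKF and 30.4 and 20.8 in SKF+Aβ+CSP (-0.69 ± 0.23), and Prdx6, a peroxidase, at 124 and 161 in SKF and 121 and 70.1 in SKF+Aβ+CSP (-0.57 ± 0.21). With the span offset 6 of 25 were lower. The count was 3 without SKF+Aβ+CSP replicate 2 or without SKF replicate 2.

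Of the chaperones 5 of 27 were higher and 3 lower at that level, against 10.3% and 9.03% of all genes, so the share lower was near that of all genes. Hsf2, a heat shock factor, was at 38.4 and 44.9 CPM in SKF and 60.6 and 70.9 in SKF+Aβ+CSP (0.66 ± 0.15, adjusted p = 0.0754), and Dnajb4, an Hsp40 protein, at 49.9 and 54.3 in SKF and 66.4 and 88.4 in SKF+Aβ+CSP (0.57 ± 0.17, adjusted p = 0.111). The cochaperone Bag3 was at 79.4 and 80.6 in SKF and 53.6 and 47.5 in SKF+Aβ+CSP (-0.66 ± 0.15, adjusted p = 0.0718). Without SKF+Aβ+CSP replicate 2 the chaperones had 1 higher and 1 lower, and without SKF replicate 2 3 higher and 1 lower. In the integrated stress response 3 of 34 were higher and 4 lower. After Atf5 these included Phgdh, of serine synthesis, at 57.5 and 74.0 in SKF and 49.1 and 42.4 in SKF+Aβ+CSP (-0.52 ± 0.15), and Cebpb, a transcription factor, at 24.3 and 34.7 in SKF and 20.4 and 20.1 in SKF+Aβ+CSP (-0.54 ± 0.18). Asns, asparagine synthetase, lay on the other side, at 67.5 and 79.8 in SKF and 89.9 and 102 in SKF+Aβ+CSP (0.38 ± 0.15). The shares of that list are near those of all genes.

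Glycolysis and hypoxia genes had 8 of 36 lower and 1 higher, against 9.03% and 10.3% of all genes, with a median of -0.12. Aldoa, an aldolase, was at 1237 and 1205 CPM in SKF and 939.9 and 811 in SKF+Aβ+CSP (-0.48 ± 0.15, adjusted p = 0.116). Ldhb, a lactate dehydrogenase subunit, was at 345 and 301 in SKF and 247 and 235 in SKF+Aβ+CSP (-0.42 ± 0.15, adjusted p = 0.155), and the hypoxia factor Hif1a was at 97.5 and 97.6 in SKF and 122 and 127 in SKF+Aβ+CSP (0.35 ± 0.14, adjusted p = 0.204). The count was 0 lower without SKF+Aβ+CSP replicate 2 and 3 without SKF replicate 1.

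Among glutamate receptors and postsynaptic scaffolds, 3 of 48 were higher and 9 lower, against 10.3% and 9.03% of all genes, so the share higher was below that of all genes. The 3 were receptor subunits. Gria2, the AMPA receptor subunit that limits calcium entry, was at 753 and 852 CPM in SKF and 1092 and 1298 in SKF+Aβ+CSP (0.57 ± 0.14, adjusted p = 0.0833). Gria3 was at 235 and 242 in SKF and 321 and 351 in SKF+Aβ+CSP (0.50 ± 0.14, adjusted p = 0.103), and the kainate subunit Grik2 at 106 and 115 in SKF and 144 and 162 in SKF+Aβ+CSP (0.46 ± 0.13, adjusted p = 0.102). DESeq2 called these 3 higher. Grin2c, an NMDA receptor subunit, was at 91.5 and 126 in SKF and 76.0 and 66.7 in SKF+Aβ+CSP (-0.61 ± 0.20, adjusted p = 0.143). Without SKF+Aβ+CSP replicate 2 the list had 0 lower and 2 higher. With the span offset 13 of 48 were lower and 3 higher, and the median was -0.15 instead of -0.13.

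Of the GABA receptors and interneuron genes, 3 of 27 were higher and 3 lower, shares near the 10.3% and 9.03% of all genes. Gabra4, a receptor subunit, was at 92.6 and 123 CPM in SKF and 158 and 185 in SKF+Aβ+CSP (0.67 ± 0.19, adjusted p = 0.102). The interneuron peptide Cck was at 101 and 132 in SKF and 76.7 and 69.5 in SKF+Aβ+CSP (-0.67 ± 0.16, adjusted p = 0.085). The number higher was 1 without SKF replicate 1 and 6 without SKF replicate 2, and the number lower was 1 without SKF+Aβ+CSP replicate 2. Potassium channels had 5 of 40 higher and 4 lower, also near those shares. Kcnn2, a small conductance calcium-activated channel, was at 14.2 and 14.7 in SKF and 21.9 and 24.04 in SKF+Aβ+CSP (0.66 ± 0.17, adjusted p = 0.0885), and Kcnj3, an inward rectifier opened by G proteins, at 58.2 and 60.5 in SKF and 83.4 and 81.6 in SKF+Aβ+CSP (0.48 ± 0.13, adjusted p = 0.0962). The auxiliary subunit Kcnab2 was at 460.1 and 524 in SKF and 388 and 367 in SKF+Aβ+CSP (-0.38 ± 0.13, adjusted p = 0.145). Without SKF+Aβ+CSP replicate 2 the channels had 2 higher and 0 lower, and without SKF replicate 2 3 higher and 7 lower. With the span offset 2 were higher and 5 lower. On the presynaptic side 5 of 31 were lower and 0 higher, against 9.03% and 10.3% of all genes. Nrxn2, a neurexin, was at 331 and 329 in SKF and 250.2 and 237 in SKF+Aβ+CSP (-0.44 ± 0.14, adjusted p = 0.132), and Stx1a, a syntaxin of the fusion complex, at 82.4 and 63.0 in SKF and 50.3 and 42.4 in SKF+Aβ+CSP (-0.65 ± 0.24, adjusted p = 0.179). The number lower was 1 without SKF+Aβ+CSP replicate 2 and 3 without SKF replicate 1.

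**Figure D5:**
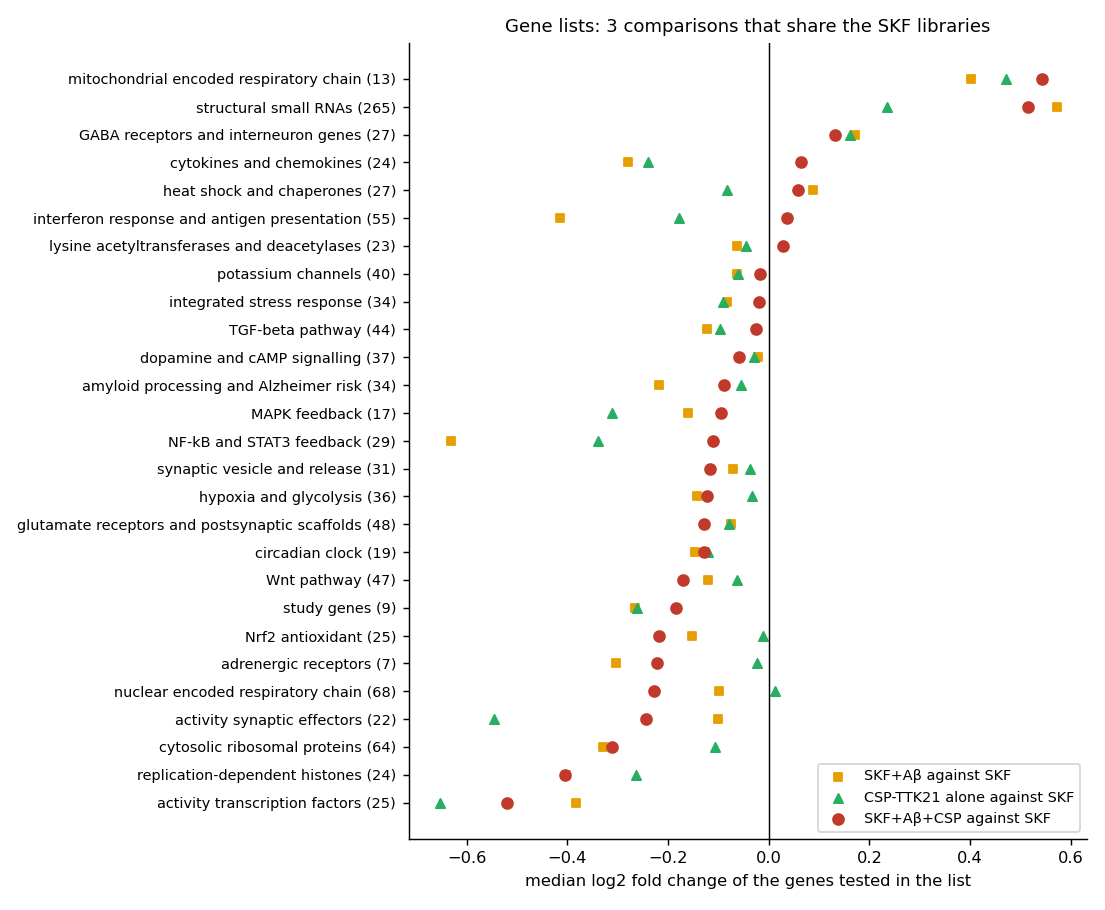
Median log2 fold change (horizontal axis) of the genes tested in each list (vertical axis, number tested in brackets) for SKF+Aβ+CSP, SKF+Aβ and CSP-TTK21 alone, each against the same SKF libraries. In SKF+Aβ+CSP the medians run from -0.52 for the activity-induced transcription factors to 0.54 for the mitochondrial encoded genes, against 0.002 over all genes.

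Of the amyloid processing and Alzheimer risk genes, 6 of 34 were lower and 3 higher, against 9.03% and 10.3% of all genes, and DESeq2 called 2 lower. With the span offset 8 were lower and 0 higher. Apoe, the lipid carrier made mainly by astrocytes, was at 2069 and 2574 CPM in SKF and 1338 and 1062 in SKF+Aβ+CSP (-0.95 ± 0.20, adjusted p = 0.0655, DESeq2 adjusted p = 0.000291). Clu, clusterin, was at 704 and 877 in SKF and 623 and 563 in SKF+Aβ+CSP (-0.41 ± 0.14, adjusted p = 0.157), and Lrp1, a receptor that takes up apolipoprotein E, at 1368 and 1522 in SKF and 1148 and 1013 in SKF+Aβ+CSP (-0.42 ± 0.14, adjusted p = 0.141). Spi1, the myeloid factor PU.1, was at 6.22 and 8.68 in SKF and 4.49 and 2.05 in SKF+Aβ+CSP (-1.16 ± 0.41, adjusted p = 0.162). The lower count was 1 without SKF+Aβ+CSP replicate 2 and 2 without SKF replicate 2.

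Most astrocyte and microglial markers lay on the same side as these genes by the estimate, while oligodendrocyte markers, given below, were on both sides. Of 12 astrocyte markers, 11 had a lower estimate and 4 of these an unadjusted p under 0.05, against 9.03% of all genes, among them Fgfr3 at 82.1 and 103 CPM in SKF and 66.0 and 55.8 in SKF+Aβ+CSP (-0.60 ± 0.18, adjusted p = 0.116), Aldh1l1, a folate enzyme (-0.62 ± 0.20), and Aldoc, a glycolytic enzyme (-0.60 ± 0.21). The summed astrocyte level was 5279 and 6979 in SKF and 5537 and 4934 in SKF+Aβ+CSP, so the groups overlapped. Of 14 microglial markers, 12 had a lower estimate and 3 an unadjusted p under 0.05, C1qa at 23.6 and 39.2 in SKF and 18.2 and 13.6 in SKF+Aβ+CSP (-0.98 ± 0.31, adjusted p = 0.126), C1qc (-0.92 ± 0.32) and Csf1r (-0.66 ± 0.28). Their sum was 255 and 415 in SKF and 284 and 253 in SKF+Aβ+CSP, overlapping as well. Without SKF+Aβ+CSP replicate 2 or SKF replicate 2 neither list had a marker lower at that level, and without the latter the medians were -0.07 and 0.04. No marker in either list was at 0 in all libraries. The part of glial content in the Apoe, Clu and Spi1 values was not tested.

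Markers of other cell types were on both sides, where 10.3% of all genes were higher and 9.03% lower. Oligodendrocyte markers gave 2 higher and 1 lower of 16. The count was 0 higher and 2 lower without SKF replicate 1 (median -0.15), 3 higher and 0 lower without SKF replicate 2 (median 0.35), and 0 on either side without SKF+Aβ+CSP replicate 2. Examples are Ermn, a myelin cytoskeletal protein, at 102 and 117 CPM in SKF and 162 and 152 in SKF+Aβ+CSP (0.52 ± 0.21, adjusted p = 0.211) and the lineage factor Sox10 at 59.997 and 68.1 in SKF and 49.0 and 43.4 in SKF+Aβ+CSP (-0.47 ± 0.21). Their summed level varied from 17697 to 26012 within SKF. Precursor markers gave 2 of 8 lower, 4 without SKF replicate 1 (median -0.56) and 0 without SKF replicate 2 (median 0.06). Endothelial and mural markers had 3 of 15 higher, Tek, the angiopoietin receptor, at 8.85 and 7.74 in SKF and 13.7 and 11.4 in SKF+Aβ+CSP (0.60 ± 0.23) and the drug exporter Abcb1a at 92.9 and 76.6 in SKF and 117 and 102 in SKF+Aβ+CSP (0.37 ± 0.14) among them, but the sums overlapped, at 409 and 274 in SKF and 457 and 365 in SKF+Aβ+CSP, and Cldn5 was listed at 0 throughout. The number higher was 0 without SKF+Aβ+CSP replicate 1, 7 without SKF replicate 1 and 1 without SKF replicate 2, and with the span offset 1 was higher and 1 lower. The meningeal markers Col1a1 and Col3a1, fibrillar collagens, were high in 1 library, SKF+Aβ+CSP replicate 2, at 18.5 and 17.7 against 4.84 and 5.32 in replicate 1, and 2 of the 13 tested in that list were higher, with 0 without that library. The summed level of that list overlapped between the groups, at 736 and 374 in SKF and 492 and 552 in SKF+Aβ+CSP, and SKF replicate 1 was the highest of the 10 libraries. Ogn and Col1a2 of the same list were listed at 0. Markers of CA3 and the dentate gyrus gave 2 lower and 1 higher of 10, and the 6 CA1 markers tested gave 0 at an unadjusted p under 0.05. Of 7 ependymal markers 1 was higher, Tmem212, which had 2 counts in each SKF library and did not pass adjustment (adjusted p = 0.0905). Interneuron markers gave 1 lower of 9 and blood cell markers 2 lower and 1 higher of 6, with Hba2, a haemoglobin chain, at 53.5 and 43.5 in SKF and 37.2 and 32.7 in SKF+Aβ+CSP (-0.47 ± 0.15).

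Of 24 cytokines and chemokines, 3 were higher and 0 lower, with a median of 0.06, when 10.3% of all genes were higher and 9.03% lower. Il1a, interleukin-1α, was at 33.9 and 23.2 CPM in SKF and 54.5 and 47.9 in SKF+Aβ+CSP (0.84 ± 0.21, adjusted p = 0.0851, DESeq2 adjusted p = 0.0203), and Cxcl11, an interferon-induced chemokine, at 4.84 and 5.61 in SKF and 11.6 and 13.9 in SKF+Aβ+CSP (1.28 ± 0.39, adjusted p = 0.119). Il6 was the other. Of 29 NF-κB and STAT3 feedback genes 0 were higher and 4 lower, and 2 lower and 1 higher with the span offset. It was 2 lower without SKF+Aβ+CSP replicate 2, and 2 lower and 1 higher without SKF replicate 1, where 16 of 29 estimates were higher. The shares of both lists on their larger side are near those of all genes. Cebpd, an acute phase factor, was at 25.99 and 25.4 in SKF and 16.8 and 15.8 in SKF+Aβ+CSP (-0.65 ± 0.20, adjusted p = 0.126), Zc3h12a, a ribonuclease that destroys cytokine messages, at 29.7 and 23.9 in SKF and 18.3 and 17.6 in SKF+Aβ+CSP (-0.58 ± 0.18, adjusted p = 0.127), and Socs3 at 55.2 and 57.9 in SKF and 46.7 and 34.9 in SKF+Aβ+CSP (-0.47 ± 0.19). Of 55 interferon and antigen presentation genes 6 were higher and 2 lower. Ifit2, an interferon-induced inhibitor of translation, was at 25.99 and 11.5 in SKF and 47.0 and 36.9 in SKF+Aβ+CSP (1.17 ± 0.33, adjusted p = 0.101), and Ifi44 at 12.2 and 6.94 in SKF and 18.4 and 17.6 in SKF+Aβ+CSP (0.92 ± 0.26, adjusted p = 0.102). Tapbp, of peptide loading on class I molecules, was at 23.5 and 19.4 in SKF and 14.9 and 12.3 in SKF+Aβ+CSP (-0.65 ± 0.20, adjusted p = 0.12). SKF replicate 1 stood above replicate 2 for Il6, Il1a and Ifit2. Without it the median was 0.47 over the cytokines and 0.32 over the interferon and antigen presentation genes. Over all genes in that fit it was 0.01. Without SKF replicate 2 both lists had 2 higher, and the cytokine median was -0.21 instead of 0.06.

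In the Wnt pathway 2 of 47 were higher and 4 lower, when 10.3% of all genes were higher and 9.03% lower, so neither share was above that of all genes. Lgr4, a receptor for R-spondins, was at 30.1 and 41.7 CPM in SKF and 51.0 and 54.8 in SKF+Aβ+CSP (0.56 ± 0.16, adjusted p = 0.104), and Wls, which escorts Wnt ligands to the surface, at 32.5 and 41.3 in SKF and 51.2 and 58.2 in SKF+Aβ+CSP (0.57 ± 0.21, adjusted p = 0.171). Tcf7l1, a repressor of Wnt targets, was at 7.88 and 8.68 in SKF and 4.84 and 4.98 in SKF+Aβ+CSP (-0.75 ± 0.26, adjusted p = 0.158), and the receptor Fzd9 at 9.68 and 9.35 in SKF and 5.79 and 6.01 in SKF+Aβ+CSP (-0.69 ± 0.25, adjusted p = 0.174). In the TGF-β pathway 1 of 44 was higher and 4 lower, Tgfb1 among them, shares near or below those of all genes. The activin receptor Acvr2a was at 29.9 and 33.5 in SKF and 42.3 and 42.5 in SKF+Aβ+CSP (0.42 ± 0.17), and Ski, a repressor of Smad signalling, at 145 and 117 in SKF and 97.2 and 96.3 in SKF+Aβ+CSP (-0.44 ± 0.17). The TGF-β list had 0 genes at that level without SKF+Aβ+CSP replicate 2 and 5 higher without SKF replicate 2, and the Wnt list had 0 higher and 6 lower without SKF replicate 1. Of 19 clock genes 1 was higher and 1 lower, Clock at 108 and 109.7 in SKF and 135 and 159 in SKF+Aβ+CSP (0.43 ± 0.13, adjusted p = 0.119) and its output gene Dbp at 49.1 and 56.1 in SKF and 38.2 and 30.3 in SKF+Aβ+CSP (-0.61 ± 0.21, adjusted p = 0.147).

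Whether CSP altered what Aβ did in SKF slices was tested as SKF+Aβ+CSP against SKF+Aβ, which is the difference of both contrasts with SKF. No gene passed adjustment (0%), 328 had an unadjusted p under 0.05 (2.18%), and DESeq2 called 1. For Ppp1r1b the difference was -0.01 ± 0.15, for the Y RNA copies 0.55 ± 0.15 and 0.40 ± 0.19, and for Atf5 0.21. With no CSP, SKF+Aβ against SKF called 312 genes (2.08%), 184 higher (1.22%) and 128 lower (0.852%), although the difference between SKF+Aβ+CSP and SKF+Aβ passed for no gene. The 312 calls were 11 without SKF replicate 1 and 12 with only the 4 libraries in the fit. SKF+Aβ stood at 36.9 and 37.4 CPM for Ppp1r1b and fell by 1.05 against SKF (adjusted p = 0.023), and Atf5 fell by 1.22 there (adjusted p = 0.023). Among the cytokines 6 of 24 were above SKF+Aβ in SKF+Aβ+CSP at an unadjusted p under 0.05, against 1.63% of all genes. So were 16 of 55 interferon and antigen presentation genes and 6 of 29 NF-κB and STAT3 feedback genes. No count without 1 library is given for this comparison. Ifit2 was 1.82 higher on the log2 scale there, and Cxcl11 1.77, and neither passed adjustment.

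CSP-TTK21 alone against SKF, a group without SKF and without Aβ, called 0 genes in edgeR, with 1170 at an unadjusted p under 0.05 (7.78%) and 3 called by DESeq2. Ppp1r1b was at 56.1 and 59.5 CPM in it (-0.41 against SKF, adjusted p = 0.633) and at 49.7 and 59.0 in SKF+Aβ+CSP-TTK21, between SKF and SKF+Aβ+CSP in both groups. The Y RNA copy ENSRNOG00000060430 was at 27.7 and 36.6 in CSP-TTK21 alone, above the SKF libraries too. The SKF libraries enter all 3 comparisons with SKF, so a library that stands apart there touches all of them. The median log2 fold change by span bin ran from -0.09 to 0.05 in CSP-TTK21 alone against SKF, with a Spearman correlation of span and fold change across genes of 0.19. That correlation was 0.27 for SKF+Aβ against SKF and 0.002 for SKF+Aβ+CSP against SKF+Aβ.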

How the data were processed

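RNA-seq of the CA1 region was analysed in 10 libraries, 2 for each of 5 groups, with groups and replicate numbers from the labels. The table deposited by the authors holds a raw count for each rat Ensembl gene in each library, neither normalized nor pooled. Per the study's methods, the libraries were stranded and depleted of ribosomal RNA, and reads were trimmed with Trim Galore, stripped of duplicates with Samtools and aligned with TopHat2 before Cufflinks and Cuffdiff, naming Rnor_6.0 and, in another sentence, mm10. The submitters' processing notes name STAR, RSEM, HISAT2, Salmon and GRCh38 with no role. The program that made the counts, and its use of strand, are not given in the sources used here, so overlapping and antisense genes are uncertain.

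Counts were fitted in R 4.3.3 with edgeR 4.0.16 (quasi-likelihood, TMM, filterByExpr by group, a mean per group, all 10 libraries), and a gene passed when its p-value, adjusted after Benjamini and Hochberg over all genes tested, was under 0.05. The study's limit of 1.5 on the log2 scale was added as a second rule. Of 32545 genes 15032 were tested. The common biological coefficient of variation was 0.136. Alternatives used RLE factors, no filter, at least 10 counts in every library, the replicate number as a block, only the 4 libraries, DESeq2 1.42.0, limma 3.58.1 and each library left out. An adjusted p under 0.1, the genes with a RefSeq span and a span offset (a smooth trend from mgcv 1.9.3) were chosen after seeing the data. The script was tested on simulated data.

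Total counts of 6753742 to 8473407 limit genes under about 1 CPM. The SE of a fold change is from the quasi-likelihood fit and includes the spread between libraries. Replicates differed by more than counting noise, with chi-square per degree of freedom of 4.97 in SKF+Aβ+CSP and 12.6 in SKF. The 39 gene lists and the genes followed were chosen with earlier results of these data known. Genes named are the study's genes, called genes whose libraries do not overlap, and up to 4 members per list by p-value, and others are said to be chosen after their values were seen. A few genes that the rule names are not reported here. Members of lists are counted in full, and a list is described by counts and median, without a set test. The untreated group is not analysed here.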

Additional observations from a re-analysis of the deposited data

How the results depend on the processing

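With 2 libraries a group, the number of genes called for SKF+Aβ+CSP against SKF depended on nearly every choice. It was 3, and remained 3 with RLE factors, and it was 2 with the 4 libraries alone, while it was 754 with no filter on low counts, 54 with at least 10 counts in every library, 456 with DESeq2, 8 with limma, 459 at an adjusted p under 0.1, and 0 both among genes with a span and with the span offset, where neither Y RNA copy has a span. Without 1 library it lay between 1 and 6. The fold-limited count of 2 was 69 with no filter, 5 with at least 10 counts, 0 with either span setting, and 1 to 5 without 1 library. For SKF+Aβ against SKF the 312 calls were 1311 with no filter, 12 with the 4 libraries alone, 818 with DESeq2, 41 with the span offset and 11 to 174 without 1 SKF library. For CSP-TTK21 alone against SKF the 0 calls were 157 with no filter, 1 with at least 10 counts, 3 with DESeq2, 1 with limma and 0 to 1 without 1 SKF library. For SKF+Aβ+CSP against SKF+Aβ they were 66 with no filter, 1 with the 4 libraries alone and 1 with DESeq2. The cause of these shifts was not tested.

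The replicate number is not said to pair the libraries, and deviations of same-numbered SKF and SKF+Aβ+CSP libraries correlated at 0.0571. With that number as a block 7 genes were called for SKF+Aβ+CSP against SKF and 1 against SKF+Aβ.

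Among single genes the sign turned with the span offset for Crebbp (-0.0388) and Ep300 (-0.0834). Without 1 library the estimate ranged from -1.84 to 0.25 for Npas4, -0.0436 to 1.88 for Col1a1, -0.00709 to 1.73 for Col3a1, -0.58 to 1.78 for Cxcl1, -0.53 to 0.41 for Bdnf, -0.0254 to 0.0714 for Ep300 and -0.26 to 0.76 for Wnt10b. Leaving out 1 library moved the estimate by over 1.5 times for 45 of the 121 genes refitted, the 7 just ranged included. The sign held for the others, such as Csf1r (-1.04 to -0.16), Prdx6 (-1.04 to -0.25), Arc (-1.21 to -0.25), C1qa (-1.31 to -0.56), Mt-co1 (0.41 to 1.29), Ifit2 (0.69 to 1.86) and Il6 (0.68 to 1.59), and also for Egr1, Egr2, Egr4, Nr4a1, Dusp5, Pim1, Pcsk1, Drd1, Drd2, Drd5, Pde1a, Crebbp, App, S100b, Clu, Spi1, Grin2c, Socs3, Cebpb, Phgdh, Asns, Ifi44, Dnajb4, Hist1h1a, Lgr4, Ski and Abcb1a.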
